A study of Drosophila melanogaster with 31 samples.

Results

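Transcripts of 8 genes tied to mRNA localization at the anterior and dorsal sides of the Drosophila melanogaster oocyte were measured in ovaries. The genes are bicoid (bcd), gurken (grk), staufen (stau), exuperantia (exu), swallow (swa), Bicaudal D (BicD), egalitarian (egl) and gustavus (gus). They were chosen by symbol from the 9251 genes of the deposited table for their known roles, with earlier results of these data already known, and all 8 were found. Each had at least 1 TPM in all 30 libraries of that table. TPM is the share of a library taken by a transcript, corrected for its length, so levels of different genes can be compared, but it keeps no sequencing depth, and the depth behind each value is unknown.

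The poly(A) RNA-seq series addresses RNA degradation in the passage of germ cells to oocytes that carry maternal mRNA. It held 31 libraries: 16 of total mRNA (8 groups of 2), 12 from polysome gradients and their inputs (6 groups of 2) and 3 from bam-deficient ovaries, with no replicates. Adult wild type carried UAS-Dcr-2 with a nanos (nos) GAL4 driver, which is active in the germline, and was dissected 1 to 3 days after eclosion, as were all other groups but one. Young wild type had the same genotype and was dissected 0 to 3 hours after eclosion. The tst mutant was tstMB10212 over the deficiency Df(3R)Exel9013. In tst RNAi ovaries, UAS-Dcr2 and nosGAL4 drove a tst hairpin, so only the germline was targeted. The gene tst (twister) encodes an RNA helicase of the Ski complex, a cofactor of the cytoplasmic exosome. The pelo heterozygote was pelo1/CyO and the mutant pelo1/pelo1. The gene pelo encodes a factor that rescues stalled ribosomes. The hfp heterozygote was hfp9/TM2 and the mutant hfp9/hfp9, with hfp encoding a splicing factor. Control input and polysome preparation 1 came from the UAS-Dcr-2 and nos-GAL4 line, and preparation 2 from pelo1/CyO, so the control pair mixes genotypes. Single libraries were nosGAL4>bam RNAi input, nosGAL4>bam RNAi polysome and a bam mutant with the delta 86 allele. Loss of bam holds germ cells before cyst formation, so few or no egg chambers form.

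The mRNA of bcd is made in nurse cells, moves into the oocyte along microtubules and is anchored at the anterior margin, where it is later translated into the morphogen of the head and thorax. The proteins Exu, Swa and Stau act at successive steps of that anchoring, and Stau, which binds double-stranded RNA, also serves oskar mRNA at the posterior pole. The mRNA of grk gathers above the oocyte nucleus, and Grk, a ligand like TGF-alpha, signals to the Egfr of the overlying follicle cells to set the dorsal side. Egl binds localised mRNAs and, with the adaptor BicD, couples them to the dynein motor. Gus is a SPRY and SOCS box protein that binds the helicase Vasa.

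By RefSeq annotation of the Release 6 assembly (dm6), bcd lies at chr3R:6755842-6759466, grk at chr2L:8431086-8433598, stau at chr2R:18117896-18125779 and exu at chr2R:20667427-20671083. The others are swa at chrX:6363418-6365708, BicD at chr2L:17459605-17473215, egl at chr2R:23734904-23746829 and gus at chr2R:5116990-5128321. All are protein coding. Another annotated gene overlaps grk (Akap200), exu (galla-1), BicD (Sgt) and gus (lncRNA:CR43256). In both wild type groups and both tst total mRNA groups, replicate 2 is labelled as read on the reverse strand and replicate 1 has no strand label that applies, so reads of these 4 genes and their neighbours may be mixed where strand was not used.

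Some features of the libraries bear on what follows. The targeted transcripts were lower than in controls in total and input RNA, with tst at 35.3 to 39.6 TPM in adult wild type, 6.34 to 8.62 in the mutant and 6.77 to 11.7 in tst RNAi. In the inputs tst was at 30.3 to 32.4 TPM in the controls and 14.4 to 18 in tst RNAi. pelo was at 45.1 to 90.5 TPM in its heterozygote and 10.8 to 44.6 in its mutant, hfp at 25.8 to 48.1 and 9.29 to 20.8, and bam at 3.10 after bam RNAi (input) and 5.61 in the bam mutant against 40.1 to 65.1 in control inputs. The bam RNAi polysome library stood apart from its own input, with bam at 18.9 TPM and 9 chorion genes summing to 14030 against 103.9 TPM. The tst RNAi inputs also differed from the tst RNAi total mRNA of the same labelled genotype, with the chorion sum at 1172 to 1458 against 19270 to 37130 TPM. All 10 germline markers were detected in every group. The labels do not say that the 2 libraries of a group came from separate animals, so p values measure only the spread between libraries, which may be technical. That spread was pooled for each gene over all groups fitted together. The SE and p value of a comparison therefore also reflect replicate gaps in groups outside it.

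bcd, the anterior determinant, was at 71.3 and 98.7 TPM in adult wild type ovaries (replicates 1 and 2), 13.2 and 21.0 in young wild type, 14.6 and 45.5 in the tst mutant and 58.6 and 71.9 in tst RNAi. It was at 60.3 and 82.2 TPM in the pelo heterozygote and 29.7 and 108 in the mutant, and at 110.8 and 98.2 in the hfp heterozygote and 33.0 and 67.1 in the mutant. Young wild type and the tst mutant were low, and both libraries of each lay below both adult wild type libraries. By group mean the order ran from the hfp heterozygote (104.5 TPM) through adult wild type (85.0), the pelo heterozygote, the pelo mutant, tst RNAi and the hfp mutant to the tst mutant (30.1) and young wild type (17.1), and the libraries of every pair of neighbours in that order overlapped.

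exu, needed for the first steps of bcd localization, was at 524.8 and 521.5 TPM in adult wild type ovaries, 103.5 and 139.0 in young wild type, 91.6 and 233.8 in the tst mutant and 377.7 and 438.2 in tst RNAi. It was at 188.2 and 417.4 TPM in the pelo heterozygote, 109.0 and 452.1 in the pelo mutant, 510.4 and 457.4 in the hfp heterozygote and 217.3 and 327.4 in the hfp mutant. Adult wild type was highest, followed by the hfp heterozygote and then tst RNAi, with no overlap among these 3, and from tst RNAi down each group overlapped with its neighbour. swa, required for the anchoring of bcd mRNA later in oogenesis, was at 349.4 and 291.5 TPM in adult wild type ovaries, 112.3 and 149.8 in young wild type, 76.9 and 179.0 in the tst mutant and 345.8 and 283.4 in tst RNAi. It was at 177.4 and 335.9 TPM in the pelo heterozygote, 70.7 and 358.0 in the pelo mutant, 398.2 and 389.4 in the hfp heterozygote and 177.3 and 279.1 in the hfp mutant. The young and tst mutant means were the lowest for swa too, with 131.1 and 128.0 TPM, and only the hfp heterozygote had no overlap with its neighbour, adult wild type.

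stau had an adult wild type level of 86.9 and 91.2 TPM, against 37.5 and 82.2 in young wild type, 37.2 and 63.6 in the tst mutant and 76.7 and 73.6 in tst RNAi. In the pelo and hfp groups replicate 1 was low and replicate 2 high whatever the genotype, with 31.7 and 127.0 TPM in the pelo heterozygote, 23.7 and 100.3 in the pelo mutant, 64.1 and 128.3 in the hfp heterozygote and 33.4 and 125.2 in the hfp mutant. The median TPM of all genes was also lower in replicate 1 of these groups. It was 22.7 and 35.7 in the pelo heterozygote and 18.4 and 43.3 in the pelo mutant. In the hfp heterozygote it was 38.1 and 40.3, and in the hfp mutant 29.2 and 38.4. All neighbours in the order of the stau group means overlapped.

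BicD was at 93.1 and 105.5 TPM in adult wild type ovaries, 71.4 and 89.1 in young wild type, 73.4 and 95.9 in the tst mutant and 92.1 and 99.8 in tst RNAi. egl was at 74.0 and 74.6 TPM in adult wild type ovaries, 63.2 and 86.7 in young wild type, 66.3 and 64.3 in the tst mutant and 74.5 and 63.6 in tst RNAi. These transport genes thus stayed within a narrow span in the 4 groups, and the span was wider in the pelo and hfp groups. There BicD ran from 27.0 TPM in pelo mutant replicate 1 to 127.8 in hfp heterozygote replicate 2, and egl from 14.2 to 100.3 TPM in the same libraries. The median of all genes differed between these libraries as well, at 18.4 and 40.3 TPM. The group means of egl and of BicD overlapped from neighbour to neighbour throughout.

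grk was the least abundant of the 8 in adult wild type, with 34.9 and 32.5 TPM, but was at 79.0 and 67.4 in young wild type and 76.8 and 53.3 in the tst mutant, against 28.8 and 28.1 in tst RNAi. It was at 13.8 and 33.4 TPM in the pelo heterozygote, 23.1 and 36.2 in the pelo mutant, 23.6 and 31.0 in the hfp heterozygote and 20.0 and 28.2 in the hfp mutant. Young wild type and the tst mutant overlapped with each other and lay above all other total mRNA libraries. gus, the Vasa partner, was at 269.7 and 417.7 TPM in adult wild type ovaries, 107.4 and 149.1 in young wild type, 131.9 and 267.5 in the tst mutant and 343.7 and 338.9 in tst RNAi. It was at 241.5 and 346.3 TPM in the pelo heterozygote, 109.8 and 425.6 in the pelo mutant, 506.9 and 436.0 in the hfp heterozygote and 252.9 and 252.2 in the hfp mutant. For gus the hfp heterozygote lay above adult wild type without overlap, and all later neighbours overlapped.

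**Figure D1:**
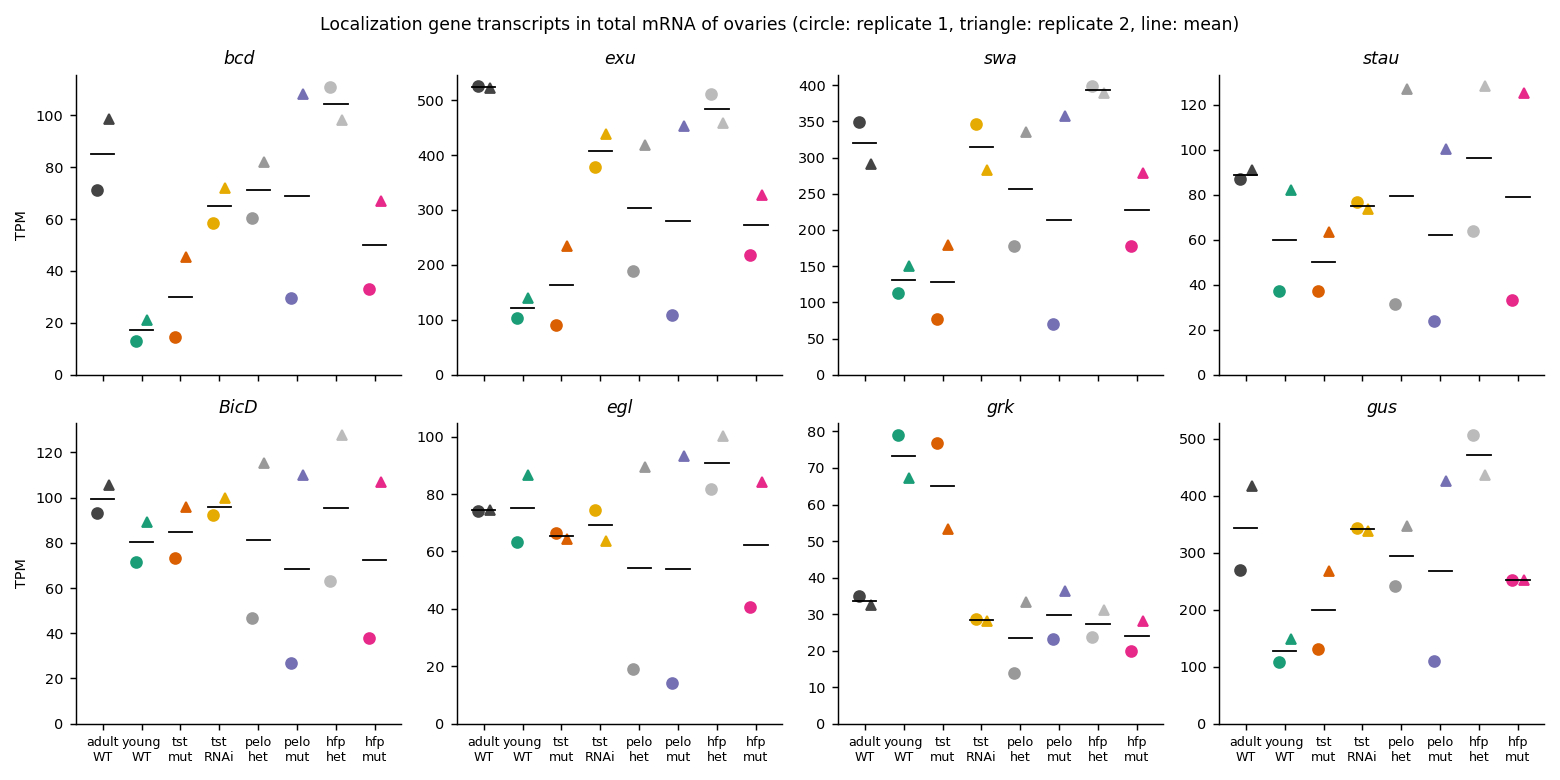
TPM of the 8 genes (vertical axes, each from 0) in the 16 total mRNA libraries by group, with circles for replicate 1, triangles for replicate 2 and a line at the mean. bcd, exu, swa and gus have low young wild type libraries, and grk has its highest values in young wild type and the tst mutant.

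Young and adult wild type differ in age alone by label. In young ovaries bcd fell by 2.26 on the log2(TPM + 1) scale (SE 0.62, adjusted p = 0.0372) and exu fell by 2.12 (SE 0.61, adjusted p = 0.0444) in limma, with 2 libraries in each group. These 2 of 8 genes passed the threshold of 0.05, where 11.1 percent of 8864 tested genes passed in either direction and 3.16 percent fell. No member rose by this test. The difference for gus was -1.40 (SE 0.53, adjusted p = 0.122), for swa -1.29 (SE 0.63, adjusted p = 0.233), for grk 1.09 (SE 0.43, adjusted p = 0.136), for stau -0.67, for BicD -0.31 and for egl -0.005. Of the 8, 6 had both young libraries below both adult ones, as had 34.6 percent of all genes, grk had both above, as had 31.6 percent, and egl overlapped. With the replicate number, which also carries the strand label, as a block, 5 passed: bcd, exu, swa (adjusted p = 0.0224) and gus (adjusted p = 0.00559) fell and grk rose (adjusted p = 0.00444), where 37.5 percent of all genes passed. With equal library medians the median difference of all genes moved from -0.05 to 0.23, and bcd, exu, gus and grk passed, where 13.5 percent of all genes did. Leaving out any 1 of the 4 libraries (young 1, young 2, adult 1 or adult 2) left no member called. Fold changes on this scale understate changes of low genes.

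The eggshell and somatic transcripts moved with age as well. The 9 chorion markers summed to 41380 to 53800 TPM in adult and 43.6 to 88.0 in young wild type, and all 9 fell. The 7 vitelline membrane markers summed to 29220 to 35080 TPM in adult and 210 to 265 in young wild type, and 6 fell. The 7 early follicle cell markers summed to 106 to 120 TPM in adult and 323 to 369 in young wild type, and 5 rose. The 10 muscle sheath markers summed to 294 to 437 TPM in adult and 5022 to 6615 in young wild type, and all 10 rose, while 6 of 8 hemocyte markers rose (sums of 162 to 205 against 1900 to 2230 TPM). No marker of these lists was at 0 in all libraries of a group, apart from the fat body gene Lsp2 in adult wild type, and the part of these cells in the results was not tested. In whole ovaries, fewer cells of a type and less RNA per cell cannot be told apart. The 10 germline markers summed to 1084 to 1421 TPM in adult and 1366 to 1870 in young wild type. As a percentage of that sum, bcd was at 6.57 to 6.95 in adult and 0.968 to 1.13 in young wild type, exu at 36.7 to 48.4 and 7.43 to 7.58, swa at 20.5 to 32.2 and 8.01 to 8.23, and gus at 24.9 to 29.4 and 7.86 to 7.97. By this measure stau was at 6.41 to 8.01 in adult and 2.75 to 4.39 in young wild type, and BicD at 7.43 to 8.58 and 4.77 to 5.23. egl was at 5.25 to 6.83 in adult and 4.63 in both young libraries. Only grk was higher in young wild type, with 3.60 to 5.78 against 2.29 to 3.22.

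Few genes of the lists around the 8 passed the same test. Of 18 other localization factors 1 fell and none rose (median difference 0.16, against -0.05 for all genes), namely gammaTub37C, a maternal gamma-tubulin, which had 142 to 198 TPM in adult and 42.7 to 52.6 in young wild type (-1.80, SE 0.46, adjusted p = 0.0260). None of 12 microtubule motor genes (median -0.51), 18 genes of Gurken and Egfr signalling (median 0.03) or 6 genes of Gus partners (median -0.26) passed. The dynein light chain gene ctp had 194 to 266 TPM in adult and 172 to 271 in young ovaries. Vasa, encoded by vas and bound by Gus, was at 249.5 to 334.3 and 287.1 to 354.3 TPM. With the replicate block 2 of the localization factors rose and 5 fell, 2 motors fell, 6 signalling genes rose and 6 fell, and 2 Gus partners fell, where 37.5 percent of all genes passed.

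The tst mutant and tst RNAi were compared with the same adult wild type libraries, so their values are set side by side. In the tst mutant bcd was 1.66 log2 lower (SE 0.62, adjusted p = 0.161), exu 1.83 lower (SE 0.61, adjusted p = 0.112), swa 1.44 lower (SE 0.63, adjusted p = 0.243) and grk 0.91 higher (SE 0.43, adjusted p = 0.284). None of the 8 passed, where 4.23 percent of genes did and 18.6 percent had an unadjusted p under 0.05. With the replicate block bcd (adjusted p = 0.0124), exu (adjusted p = 0.00295) and swa (adjusted p = 0.0211) fell and grk rose (adjusted p = 0.0169), 4 of 8 where 23.5 percent of genes passed. In tst RNAi no member passed (1.02 percent of genes did, and 7.76 percent at an unadjusted p under 0.05), and the differences ran from -0.37 for bcd to 0.02 for gus. The chorion sum was 4632 to 8282 TPM in the mutant and 19270 to 37130 in tst RNAi. The muscle sheath sum was 1364 to 2357 in the mutant and 2664 to 2767 in tst RNAi, and its part in the values above was not tested. bcd was at 1.58 to 3.43 percent of the germline marker sum in the tst mutant and 4.98 to 5.17 in tst RNAi.

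In the direct comparison of the tst mutant with tst RNAi no member passed (1.03 percent of genes passed, and 10.4 percent at an unadjusted p under 0.05). The mutant was 1.14 higher for grk (SE 0.43, adjusted p = 0.336), 1.47 lower for exu (SE 0.61, adjusted p = 0.402) and 1.41 lower for swa (SE 0.63, adjusted p = 0.463). With the replicate block these 3 passed, with adjusted p of 0.0146, 0.0199 and 0.0446, where 8.66 percent of genes did. Between the tst mutant and young wild type no member passed (4.19 percent of genes did, and 12.5 percent at an unadjusted p under 0.05), and all 8 overlapped, while 25.3 percent of all genes had both mutant libraries above both young ones and 18.8 percent had both below. Of the signalling list pip, a sulfotransferase gene of ventral follicle cells, was higher in the tst mutant than in young wild type by 1.48 (SE 0.35, adjusted p = 0.0352), at 1.74 to 3.37 against 0.211 to 0.269 TPM.

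In pelo and hfp ovaries no member passed against its own heterozygote. For pelo the differences ran from -0.61 (swa, SE 0.63) to 0.41 (grk, SE 0.43), every member overlapped (16.9 percent of all genes had both mutant libraries above both heterozygote ones and 3.84 percent had both below), and 0.226 percent of genes passed, with 7.64 percent at an unadjusted p under 0.05. For hfp all 8 differences were negative, from -1.13 (bcd, SE 0.62, adjusted p = 0.645) to -0.18 (grk, SE 0.43), beside an all-gene median of -0.07. They come from the same libraries, so the 8 signs are not separate observations, and grk was at 0.05 with equal library medians. bcd, exu (-0.85), swa (-0.82) and gus (-0.89) had both mutant libraries below both heterozygote ones, as had 22.1 percent of all genes. Muscle sheath sums were 258 to 424 TPM in the hfp heterozygote and 1292 to 1988 in the mutant, and 211 to 667 in the pelo heterozygote and 1755 to 1954 in the mutant, with 2 of 10 genes called higher for each. Chorion sums were 22830 to 35690 TPM in the hfp heterozygote and 17710 to 23720 in the mutant, and 14990 to 64020 in the pelo heterozygote and 8337 to 14760 in the mutant, with no gene called, and their part was not tested. Of all genes 0.993 percent passed for hfp, and 10.3 percent at an unadjusted p under 0.05. No member passed with the replicate block either, where 9.87 percent of genes passed for hfp and 4.05 percent for pelo. For hfp the limma test with that block gave adjusted p of 0.0889 for gus (SE 0.30) and 0.0922 for bcd (SE 0.39). The difference between the hfp and the pelo effects passed for none of the 8 (0.248 percent of genes passed, and 3.31 percent at an unadjusted p under 0.05).

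**Figure D2:**
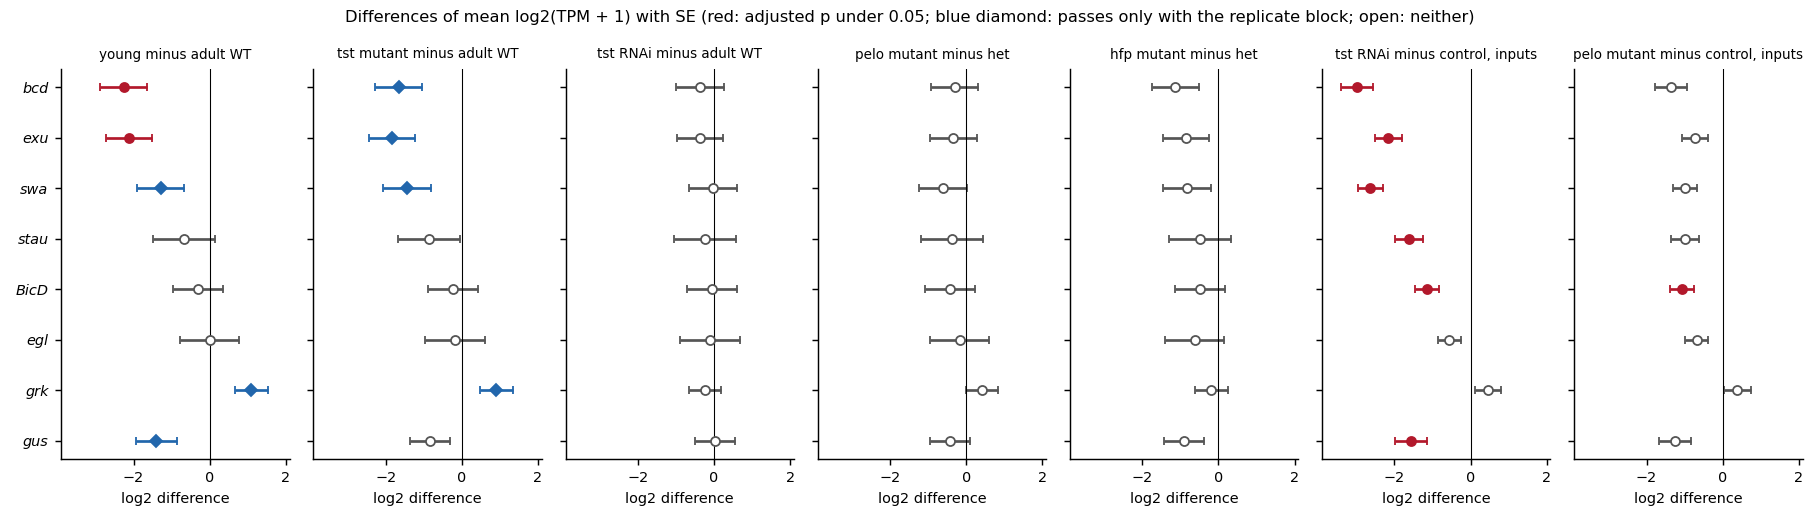
Differences of mean log2(TPM + 1) with bars of 1 SE (horizontal axes) for the 8 genes in 7 comparisons of 2 libraries against 2. Filled red points passed the limma test, blue diamonds passed only with the replicate block and open points passed neither, and 6 points are red in the tst RNAi input panel.

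In the inputs of the polysome preparations the same genes were lower in tst RNAi. bcd was at 74.4 and 59.6 TPM in control inputs and at 7.66 and 7.41 in tst RNAi inputs, a fall of 2.99 (SE 0.43, adjusted p = 3.79e-04). swa went from 360.3 and 284.1 TPM to 50.2 and 51.6, a fall of 2.63 (SE 0.33, adjusted p = 1.51e-04). exu went from 280.6 and 323.5 TPM to 87.0 and 51.0, a fall of 2.16 (SE 0.35, adjusted p = 7.73e-04). These 3 were the furthest apart of the 8. Every member but grk had both tst RNAi inputs below both control inputs, as had 45.4 percent of all genes. stau went from 100.6 and 81.4 TPM to 31.9 and 25.9 (-1.62, SE 0.37, adjusted p = 0.00588), and gus from 571.2 and 340.8 to 146.7 and 152.1 (-1.56, SE 0.42, adjusted p = 0.0134). BicD went from 145.8 and 96.9 TPM to 54.2 and 53.2 (-1.13, SE 0.32, adjusted p = 0.0159). So 6 of 8 fell and none rose, where 40 percent of 8572 tested genes passed and 21.3 percent fell. egl was at 84.1 and 59.4 TPM against 55.3 and 41.4 (-0.55, SE 0.30, adjusted p = 0.165), and grk at 23.9 and 19.9 against 29.2 and 31.7 (0.46, SE 0.35, adjusted p = 0.325). With equal library medians, where the all-gene median was 0.29 in place of -0.16, grk rose as well (0.91, adjusted p = 0.0289). Without tst RNAi input 2, or without control input 1, bcd, exu and swa alone were called.

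The same marker lists moved with these inputs. Chorion sums were 27960 to 40910 TPM in control and 1172 to 1458 in tst RNAi inputs, with all 9 genes lower. Muscle sheath sums were 332 to 431 in control and 4940 to 4991 in tst RNAi inputs, with all 10 genes higher, and their part in the result was not tested. Per germline marker sum (1263 to 1316 TPM in control and 939 to 1078 in tst RNAi inputs), bcd was at 4.72 to 5.65 percent in control and 0.710 to 0.789 in tst RNAi inputs, and grk at 1.58 to 1.81 and 2.71 to 3.37. In tst RNAi total mRNA, by contrast, bcd was at 58.6 and 71.9 TPM and swa at 345.8 and 283.4, near adult wild type. No test was made between the total mRNA and input sets.

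Of 18 localization factors 6 fell and 1 rose in tst RNAi inputs (median -0.36, against -0.16 for all genes), a share near the 40 percent of all genes that passed. The poly(A) polymerase gene wisp had 244 to 261 TPM in control and 30.1 to 39.7 in tst RNAi inputs (-2.84, SE 0.26, adjusted p = 2.98e-05) and the kinesin-like gene nod 68.0 to 69.1 and 12.8 to 15.8 (-2.19, SE 0.24, adjusted p = 7.50e-05). otu, needed for nurse cell and oocyte development, fell by 2.57 (SE 0.45, adjusted p = 0.00125). The RNA-binding protein gene Syp rose by 2.30 (SE 0.47, adjusted p = 0.00321). Of 12 motor genes 2 fell, Dlic (dynein light intermediate chain) by 0.92 (adjusted p = 0.0233) and DCTN1-p150 (dynactin) by 0.86 (adjusted p = 0.0420). Of 18 signalling genes 3 rose and 4 fell. The receptor gene Egfr rose, with 6.82 to 7.48 TPM in control and 24.9 to 36.5 in tst RNAi inputs (1.94, SE 0.35, adjusted p = 0.00148), while the kinase gene Dsor1 (-1.50, adjusted p = 2.33e-04), the protease gene stet (-1.75, adjusted p = 0.00244) and the ubiquitin ligase gene Cbl (-1.61, adjusted p = 0.00261) fell. Of 6 Gus partners vas fell by 0.86 (adjusted p = 0.0176) and the cullin gene Cul5 by 1.47 (adjusted p = 0.00116).

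In pelo mutant inputs, compared with the same control inputs, BicD alone passed. It went from 145.8 and 96.9 TPM to 48.9 and 63.8, a fall of 1.08 (SE 0.32, adjusted p = 0.0487), where 12.2 percent of genes passed and 1.85 percent fell. bcd was at 26.0 and 24.6 TPM (-1.36, adjusted p = 0.0628), swa at 162.8 and 158.2 (-0.99, adjusted p = 0.0715) and gus at 174.4 and 193.8 (-1.26, adjusted p = 0.0737). All 8 genes had no overlap with the controls, grk (25.9 and 32.1 TPM) above and the other 7 below, as were 29.1 and 42.9 percent of all genes. The BicD call was lost without pelo mutant input 1, without pelo mutant input 2 and without control input 1. Of the lists, Dsor1 (-0.68, adjusted p = 0.0490) and Cul5 (-0.92, adjusted p = 0.0370) fell and no localization factor or motor passed. The muscle sheath sum was 3082 to 4082 TPM in pelo mutant inputs, with all 10 genes higher than in controls, and its part was not tested.

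In both control preparations polysome libraries held less of all 8 transcripts than their own inputs, as a share of the library, and 7 of the 8 passed the test. gus went from 571.2 to 216.7 TPM and from 340.8 to 70.2 (-1.83, SE 0.23, adjusted p = 0.00184), and BicD from 145.8 to 47.4 and from 96.9 to 24.4 (-1.77, SE 0.23, adjusted p = 0.00184). stau went from 100.6 to 38.8 TPM and from 81.4 to 15.4 (-1.84, SE 0.31, adjusted p = 0.00283), and egl from 84.1 to 26.1 and from 59.4 to 20.1 (-1.59, SE 0.28, adjusted p = 0.00321). Both preparations went the same way for each of these genes. swa went from 360.3 to 236.2 TPM and from 284.1 to 102.0 (-1.04, SE 0.24, adjusted p = 0.00799), bcd from 74.4 to 46.5 and from 59.6 to 13.8 (-1.35, SE 0.34, adjusted p = 0.0114) and grk from 23.9 to 18 and from 19.9 to 7.87 (-0.81, SE 0.29, adjusted p = 0.0491). With quantile normalization the log2 difference of grk changed sign to 0.036, and grk was not called. The grk call was kept in 2 of 9 other settings, and was lost without control preparation 2 (-0.39, adjusted p = 0.390). exu, from 280.6 to 225.3 TPM and from 323.5 to 241.7, was not called (-0.37, SE 0.20, adjusted p = 0.169). Its log2 difference changed sign to 0.42 with equal library medians, where it was not called either. Falls were also common among all genes, of which 41.7 percent passed and 38.4 percent fell, with a median of -0.55 that became 0.24 with equal library medians.

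Read against the median of all genes in the same preparation (-0.60 in preparation 1 and -0.68 in preparation 2), exu was 0.28 and 0.26 above it and BicD 1.00 and 1.26 below it. stau was 0.75 and 1.65 below that median, gus 0.79 and 1.58, and egl 1.05 and 0.84. bcd was 0.07 and 1.35 below, swa 0.01 and 0.79 below, and grk was 0.21 above in preparation 1 and 0.56 below in preparation 2, so for grk the sign depended on the preparation. With equal library medians stau, BicD and gus were the members still called in the control, and with quantile normalization stau, BicD, egl and gus.

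Most genes around the 8 were lower on control polysomes too, where 38.4 percent of all genes fell and 3.25 percent rose (median -0.55). That all-gene median was above 0 with equal library medians, so the falls below depend on the normalization used. Of 18 localization factors 14 fell (median -1.31), among them bru1 (-1.85), sqd, Hrb27C (-2.01) and orb (-1.84), all 4 encoding RNA-binding proteins. Of 12 motor genes 9 fell (median -1.28), with the kinesin heavy chain gene Khc by 1.91 and Dlic by 1.65, and of 18 signalling genes 15 fell (median -1.30). Of 6 Gus partners 3 fell (median -0.46, above that of all genes), with vas by 1.34. Vitelline membrane genes went the other way, with 6 of 7 higher on control polysomes (sums of 17740 to 32740 TPM in inputs and 46630 to 57840 on polysomes).

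In pelo mutant preparations stau went from 38.4 to 15.1 and from 53.7 to 12.5 TPM (-1.65, SE 0.31, adjusted p = 0.0341), and gus from 174.4 to 91.7 and from 193.8 to 86.6 (-1.04, SE 0.23, adjusted p = 0.0425). These 2 of 8 compare with 5.9 percent of all genes called and 5.3 percent lower (median -0.18), and both calls were lost without either preparation. They also rest on the preparation block, without which the adjusted p was 0.0745 for stau and 0.177 for gus, and in these preparations input and polysome libraries of the same number deviated in opposite directions (r -0.476). bcd, at 26.0 and 24.6 TPM in the inputs and 12.9 and 13.1 on polysomes (-0.91, adjusted p = 0.116), was not called, nor were exu, swa, BicD, egl and grk. In tst RNAi preparations no member passed (0.035 percent of genes did, and 11.5 percent at an unadjusted p under 0.05, median 0.12). stau was at 31.9 and 25.9 TPM in those inputs and 38.2 and 44.8 on polysomes (0.51, SE 0.31, adjusted p = 0.593), and gus at 146.7 and 152.1 and at 170.0 and 151.9.

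**Figure D3:**
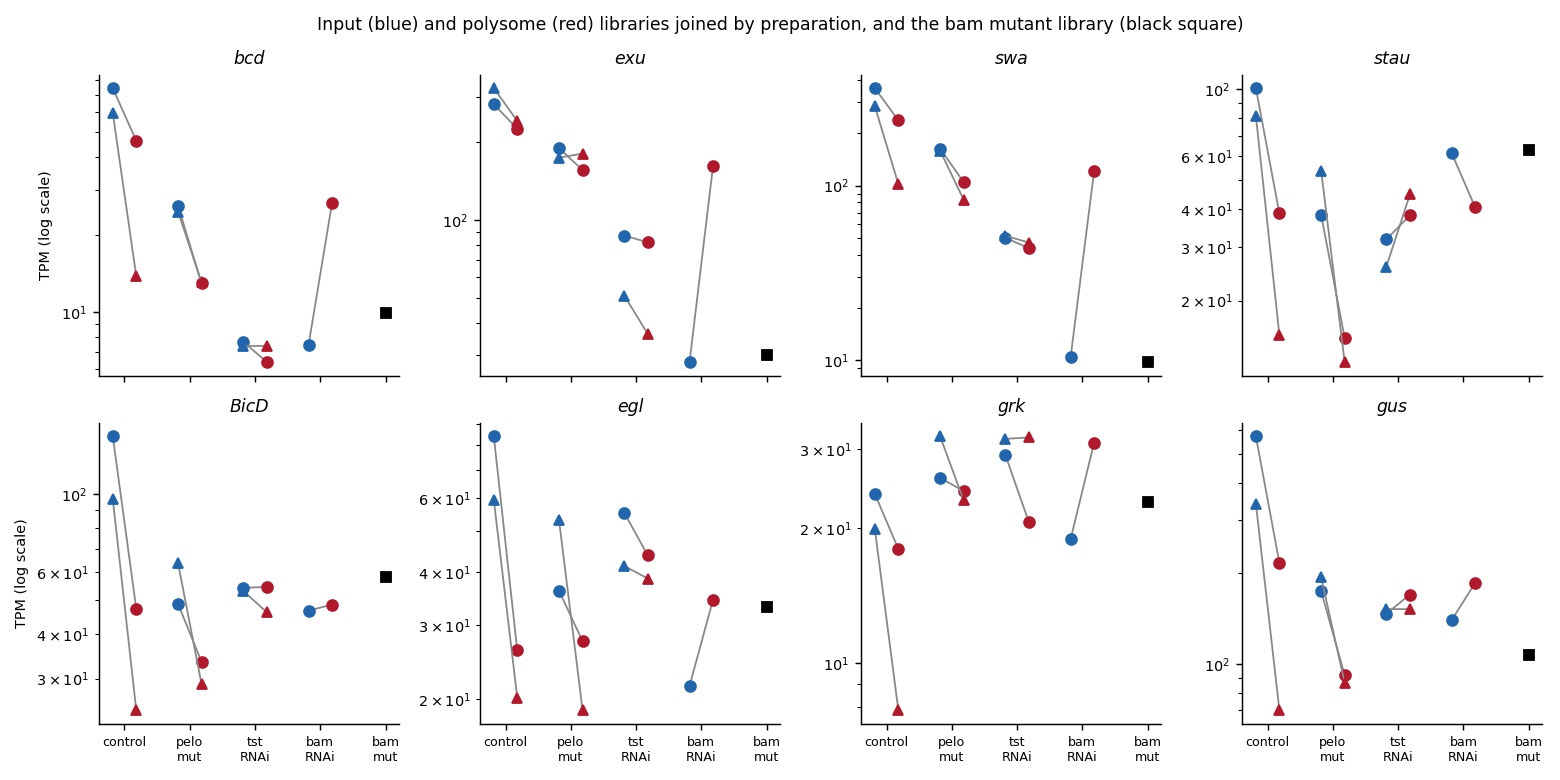
TPM on log axes of the 8 genes in input (blue) and polysome (red) libraries, joined by preparation (circle 1, triangle 2), for control, pelo mutant, tst RNAi and bam RNAi, with the bam mutant library as a black square. Lines fall for all genes in the control, run nearly flat for BicD and swa in tst RNAi, and rise steeply for bcd, exu and swa in the single bam RNAi pair.

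The polysome to input difference was itself compared between genotypes by an interaction term, with the same control preparations in both comparisons. Against the control it was 2.35 higher in tst RNAi for stau (SE 0.43, adjusted p = 0.0169), 1.93 for gus (SE 0.33, adjusted p = 0.0166), 1.68 for BicD (SE 0.33, adjusted p = 0.0173) and 1.37 for egl (SE 0.40, adjusted p = 0.0367). bcd (1.24, adjusted p = 0.0833), swa (0.88, adjusted p = 0.0816), grk (0.58, adjusted p = 0.310) and exu (0.09, adjusted p = 0.836) were not called. These 4 of 8 compare with 23 percent of all genes called and 22 percent higher, and the median of all genes was itself 0.70 higher in tst RNAi, or -0.18 with equal library medians. Of the 8, stau was highest, and grk and exu lay below that median. All 4 calls were lost with quantile normalization and with equal library medians, and without tst RNAi preparation 1 or 2. Between pelo mutant and control no member passed, and 0 percent of genes did (13.3 percent at an unadjusted p under 0.05), with the largest values for BicD (0.95, SE 0.33, adjusted p = 0.374) and gus (0.79, SE 0.33, adjusted p = 0.374) beside an all-gene median of 0.40.

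**Figure D4:**
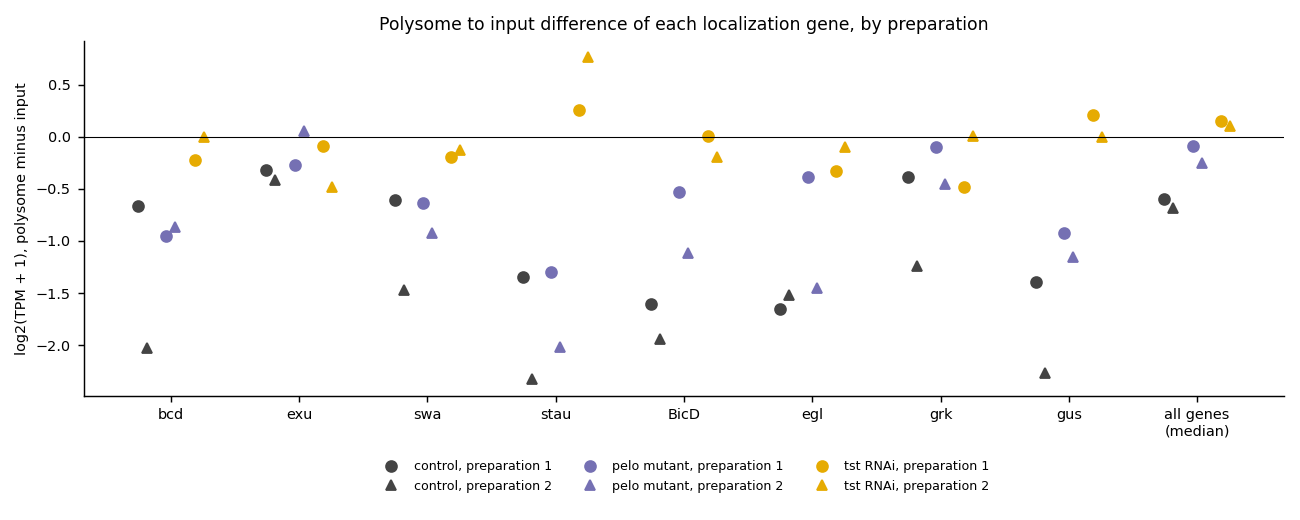
Polysome minus input difference in log2(TPM + 1) (vertical axis) of each gene in each preparation, by genotype, with the median of all genes at the right. Control points of stau, BicD, egl and gus lie between -1.35 and -2.33, and tst RNAi points lie between -0.48 and 0.77, the highest being stau in preparation 2.

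The bam libraries are 1 of each kind and allow no test, and the bam mutant values came from a table normalized separately. swa stood at 10.4 TPM after bam RNAi (input) and 9.80 in the bam mutant, 27.3 to 34.6 times and 29.0 to 36.8 times below the control inputs. exu was at 28.3 and 30.0 TPM, 9.92 to 11.4 and 9.36 to 10.8 times below them, and bcd at 7.44 and 9.93, 8.01 to 9.995 and 6.004 to 7.49 times below. These 3 anterior genes thus had their lowest or nearly lowest levels in the series there. gus was at 139.7 and 107.1 TPM, BicD at 46.7 and 58.3, egl at 21.5 and 33.1 and stau at 61.4 and 62.8. grk was at 18.9 and 22.9 TPM, close to the control inputs of 19.9 and 23.9 and below young wild type at 67.4 and 79.0. The germline marker sum was larger without bam, however, with 2185 and 1942 against 1263 to 1316 TPM for control inputs. As a percentage of that sum grk made up 0.866 and 1.18, against 1.58 to 1.81 for control inputs. By the same measure stau made up 2.81 and 3.23, against 6.45 to 7.64. All other members were lower than control inputs by this measure too. Counting genes at least 2-fold below both control inputs on the log2(TPM + 1) scale, the bam RNAi input had 6 of the 8 (all but grk and stau) against 11.7 percent of all genes, and the bam mutant had bcd, exu, swa and gus against 10.5 percent.

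The bam RNAi polysome library had 120.9 TPM of swa, 162.2 of exu and 26.5 of bcd, all above its own input. grk (31.0 against 18.9 TPM), egl (34.4 against 21.5), gus (185.7 against 139.7) and BicD (48.6 against 46.7) were above the input too. stau alone was below it (40.7 against 61.4). The median log2 difference of all genes in this library pair was -0.13. The chorion sum of the polysome library, 14030 TPM against 103.9 in the input, was higher as well. These values are therefore given apart, and the part of eggshell stages in them was not tested. The bam mutant library had a chorion sum of 2466 and a vitelline membrane sum of 42010 TPM, the latter above the control inputs (17740 to 32740). Its fat body sum was 1829 TPM, of which Lsp2 made up 1450, against 9.76 to 29.6 in control inputs. Muscle sheath sums were 7745 TPM in the bam RNAi input and 7123 in the bam mutant, against 332 to 431 in control inputs, and the part of these cells in the values above was not tested.

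The 8 genes were also compared across the 14 means of replicated groups, on log2(TPM + 1), which mix total, input and polysome libraries. The values are described without a test, since group means share controls, preparations and one table. The anterior genes ran together, with Pearson r of 0.96 for exu and swa, 0.96 for bcd and swa and 0.94 for bcd and exu. The transport genes BicD and egl had r of 0.92, stau was at 0.92 with BicD and 0.90 with gus, and of 28 pairs 24 were above 0, with a median of 0.66. No share or median over all gene pairs is given, so these values are not shown to be particular to the 8. bcd, exu and swa each had genes outside the 8 closer to them, such as dmGlut at 0.98 with bcd. grk had r of -0.24 with exu, -0.15 with bcd, -0.15 with swa and -0.09 with gus, and of 0.56 with egl, 0.42 with BicD and 0.22 with stau.

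**Figure D5:**
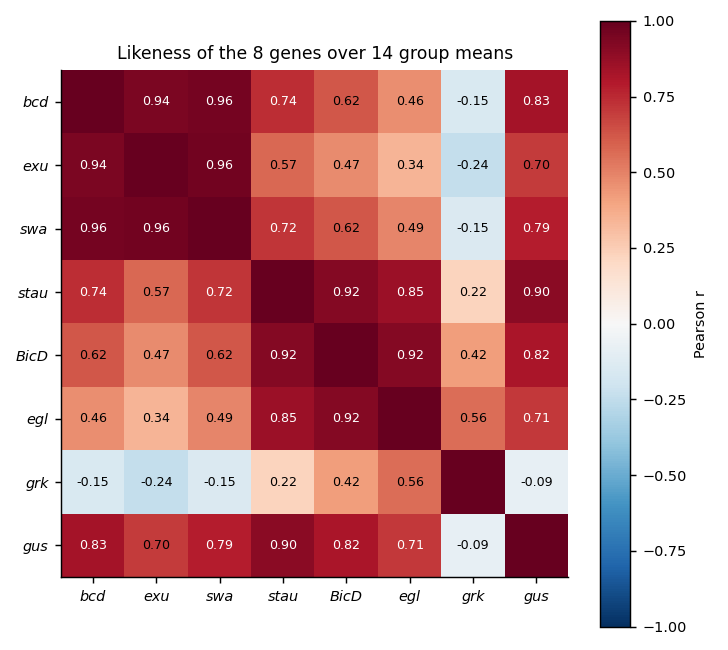
Pearson r between each pair of the 8 genes over the 14 means of replicated groups, on log2(TPM + 1). bcd, exu and swa form a block at 0.94 to 0.96, and grk has values below 0 with bcd, exu, swa and gus and above 0 with stau, BicD and egl.

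Among 6575 genes with a mean of at least 10 TPM, those most like each member over the same 14 means were dmGlut (r 0.98), borr and slif for bcd, Ggt-1 (0.98), spd-2 and muskelin for exu, and nod (0.99), dmGlut and slif for swa. They were slpr (0.997), Evi5 and CG8677 for stau, Plc21C (0.97), app and ens for BicD, and Wdr62 (0.98), ZAP3 and lig for egl. For gus they were MFS17 (0.98), CG5938 and rdx. The closest to grk were less close, with Hsc70-5 at 0.92, btsz at 0.91 and LamC at 0.90.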

How the data were processed

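The authors deposited log2 TPM values per gene, in a table of 30 libraries and a separate one for the bam mutant. Per the submitters' processing notes, the tools were HISAT2 2.0.5 and featureCounts 1.5.1 with build dm6. For annotation, gene filter and TPM formula, nothing is given in the sources used here. From the values, log2(TPM + 0.5) was inferred, since TPM then sums to about 1000000 per library. Values were turned back to TPM and analysed as log2(TPM + 1). TPM keeps no depth, so no counting interval was possible.

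Genes with at least 1 TPM in at least 2 libraries of a fit were tested with limma 3.58.1 (R 4.3.3) with a variance trend, 8864 genes in 16 total mRNA libraries and 8572 in 12 input and polysome libraries, with Benjamini-Hochberg adjustment and a threshold of 0.05. Each input is labelled as the total mRNA of its polysome sample, so polysome comparisons were blocked by preparation. Calling was tested on simulated data: of changes of 2 log2, 53.7 percent were recovered in young against adult wild type and 71.6 percent in control polysome against input. Of changes of 1 log2, 5.97 and 7.46 percent were recovered, so the absence of a call says little about differences of that size. Libraries with the same number deviated together in the wild type and tst groups (r 0.635 to 0.793), so blocked values are printed there where they change a call. They also did so between the pelo heterozygote and mutant (r 0.673) and between the hfp heterozygote and mutant (r 0.747). There the block changed no member's call. Figures used Python 3.11.15 and matplotlib 3.10.9.

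The 8 genes and all lists (18 of 19 localization factors and 7 of 8 early follicle cell genes were in the table, and all of the others) were chosen with earlier results of these data known. Named list genes are up to 4 of smallest adjusted p per comparison where any passed, otherwise up to 2 of highest mean TPM. The 3 genes most like each member have the highest r. Alternatives were other pseudocounts, filters, normalizations, sample sets, blocks and leaving out libraries.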

Additional observations from a re-analysis of the deposited data

Results flagged for a closer look

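The polysome to input difference of 4 genes differed between tst RNAi and control preparations by the interaction test in limma. The differences were 2.35 for stau, 1.93 for gus, 1.68 for BicD and 1.37 for egl on the log2(TPM + 1) scale. Each was higher in both tst RNAi preparations than in both control preparations. So were bcd and swa, which were not called, and no share of all genes is given for this trait. The median of all genes differed in the same direction by 0.70, and of all genes 23 percent passed and 22 percent were higher. All 4 calls were lost with quantile normalization, with equal library medians and without either tst RNAi preparation.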

How the results depend on the processing

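Counts of called members moved with settings as follows, each with the share of all genes called in that setting. Between young and adult wild type 2 became 4 with equal library medians (13.5 percent), 5 with the 2 groups fitted alone (26.6) or with the replicate block (37.5), and 0 with each library left out. For the tst mutant against adult wild type 0 became 1 (exu) with equal medians (4.42 percent) and 4 with the replicate block (23.5), and against tst RNAi 0 became 3 with the block (8.66). For pelo mutant inputs 1 became 2 with a pseudocount of 5 TPM (12.2 percent), quantile normalization (10.7) or equal medians (14.7), 0 without a filter (11.7), 6 when fitted alone (23.2), and 0 to 1 with a library left out. For tst RNAi inputs 6 became 3 to 6 with a library left out. On control polysomes 7 became 4 with quantile normalization (19.7 percent), 3 with equal medians (22.1) and 5 to 7 with a preparation left out, and grk reversed to 0.036 with quantile normalization. On pelo mutant polysomes 2 became 0 without a filter (0 percent), with equal medians (0.0117), without the replicate block (0) or with a preparation left out, and 5 when fitted alone (19.6). It became 4 with the pairing crossed (16.4 percent), a setting added after seeing the data because same-numbered libraries correlated at -0.476. On tst RNAi polysomes 0 became 1 (stau) when fitted alone (25.6 percent). For the tst RNAi polysome difference 4 became 0 with quantile normalization (0 percent) or equal medians (0.63), 2 without the replicate block (12.9), and 0 to 6 with a preparation left out. Causes were not tested, apart from fewer libraries where some were left out. Inputs of different genotypes did not pair by number (r -0.252 to -0.011). The block changed no member's call there or in pelo and hfp total mRNA.

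Of 120 values of a gene in a comparison, 22 were called and 76 were called in no setting, and 45 of those 76 changed sign in at least 1 setting. Each group has 2 libraries, 1 of the control pair being a heterozygote, and depth is unknown.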
